A study of Mus musculus with 4 samples.

Results

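In lung endothelial cells (ECs) isolated after unilateral pneumonectomy (PNX), the shear stress transcription factors Klf2 and Klf4 and the sphingosine 1-phosphate receptor gene S1pr1 were lower than in sham-operated mice, while the genes of the vasodilator enzymes Nos3, Gch1, Ddah1, Ddah2, Ptgis, Ptgs1 and Ptgs2 were higher. These 10 genes were chosen by name, out of the 24063 gene symbols counted, and each was represented by its RefSeq transcript with the most counts over all libraries. All 10 were among the 16208 genes that passed the filter on low counts.

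The ECs came from the lungs of C57BL6 mice (C57BL6J in the methods of the study) that were 8 weeks old and, per the labels, male. They were taken with magnetic beads coupled to an antibody to CD31, either 7 days after the left lung had been removed or after sham surgery, a thoracotomy without removal of the lung. Each group had 2 libraries (4 together), and each library was made from the pooled cells of 2 mice. No gene was altered in either group, and mice of both groups had ketamine and xylazine anesthesia and meloxicam for pain. The cells were freed with collagenase and were no longer under flow when RNA was taken, and the described isolation ends with culture of the ECs for later experiments, without a word on whether RNA was taken before or after it.

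Laminar blood flow over the endothelium activates a kinase cascade that ends in the transcription factor MEF2, which induces Klf2 and Klf4, zinc finger factors known for holding ECs in a quiescent, anti-inflammatory state. Both factors are known to raise the transcription of Nos3, which encodes the endothelial nitric oxide synthase. Nitric oxide and prostacyclin, the product of either Ptgs1 or Ptgs2 followed by Ptgis, relax the smooth muscle of pulmonary vessels. S1pr1 is a receptor on ECs that tightens their junctions and is itself known to respond to flow.

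Klf2 and Klf4 fell together, and the 250 bases before the RefSeq start of each gene are shown for that reason. They were read from RefSeq on GRCm38.p6, the assembly of mm10. The Klf2 stretch is chr8:72318812-72319061 on the plus strand and the Klf4 stretch chr4:55532476-55532725 on the minus strand. Capitals mark matches on either strand to CTA and TAG separated by any 4 bases, a core form of the MEF2 motif, to CACCC, a core of the sites bound by KLF factors, and to TGACG, the core of cyclic AMP response elements. No marked matches overlap each other.
Klf2: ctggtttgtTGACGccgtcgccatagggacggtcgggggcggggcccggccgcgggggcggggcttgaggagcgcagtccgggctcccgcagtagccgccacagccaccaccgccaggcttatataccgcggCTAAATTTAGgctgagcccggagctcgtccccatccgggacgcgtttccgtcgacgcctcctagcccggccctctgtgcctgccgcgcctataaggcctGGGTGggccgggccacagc
Klf4: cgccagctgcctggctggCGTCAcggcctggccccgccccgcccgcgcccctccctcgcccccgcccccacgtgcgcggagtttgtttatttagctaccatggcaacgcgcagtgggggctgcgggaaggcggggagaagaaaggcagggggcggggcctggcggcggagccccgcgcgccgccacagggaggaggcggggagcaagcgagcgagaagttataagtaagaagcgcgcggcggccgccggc
The MEF2 core stood in the Klf2 stretch from base -118 to base -109, counted back from the start, and 3.20% of the 32851 promoters of the same length held one. It was not found in the Klf4 stretch. All motifs were picked after these sequences had been read. TGACG was found in the Klf2, Klf4 and Gch1 stretches and in 17.8% of all promoters. CACCC was found for Klf2, Gch1 and Ddah2, and in 52.0% of all promoters. Promoter sequences were at hand for 7 of the 10 genes. These are matches of letters and were not tested for binding.

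The counts on 1 transcript per gene came to between 41367438 and 50952879 per library. Pecam1, which encodes CD31, had between 90191 and 91116 normalized counts in the 4 libraries, and Cdh5, which encodes VE-cadherin, between 93964 and 110680. Ptprc, which encodes CD45, had between 11422 and 11665, although CD45- ECs are described. The libraries went against the label on sex. All 44 Y chromosome genes that the tables list were at 0 counts in each library, while Xist, an RNA of the inactive X chromosome, had between 31872 and 33792 normalized counts. This held for both groups, and no library can be left out for it. Ly6g and Muc16, 1 marker each of neutrophils and mesothelium, were not among the symbols counted.

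A gene is called risen or fallen below when its adjusted p was under 0.01 in edgeR's quasi-likelihood F test of all 16208 genes, whatever the size of the change. That rule called 57.1% of all genes. Libraries of a group differed little (median SD of 0.0312 on the log2 scale over the 14299 genes whose mean reached 50 counts). By the same rule 10 of the 10 genes changed. The 7 that rose are to be read against 29.3% of all genes that rose, and the 3 that fell against 27.8% that fell. None of the 10 had a log2 fold change beyond 1, the further threshold of the study's methods, which 7.56% of all genes passed, 5.9% upward and 1.66% downward. The post-PNX libraries did not overlap the sham libraries in any of the 10 genes, which was also true of 81.2% of all genes, 40.8% higher and 40.5% lower.

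**Figure D1:**
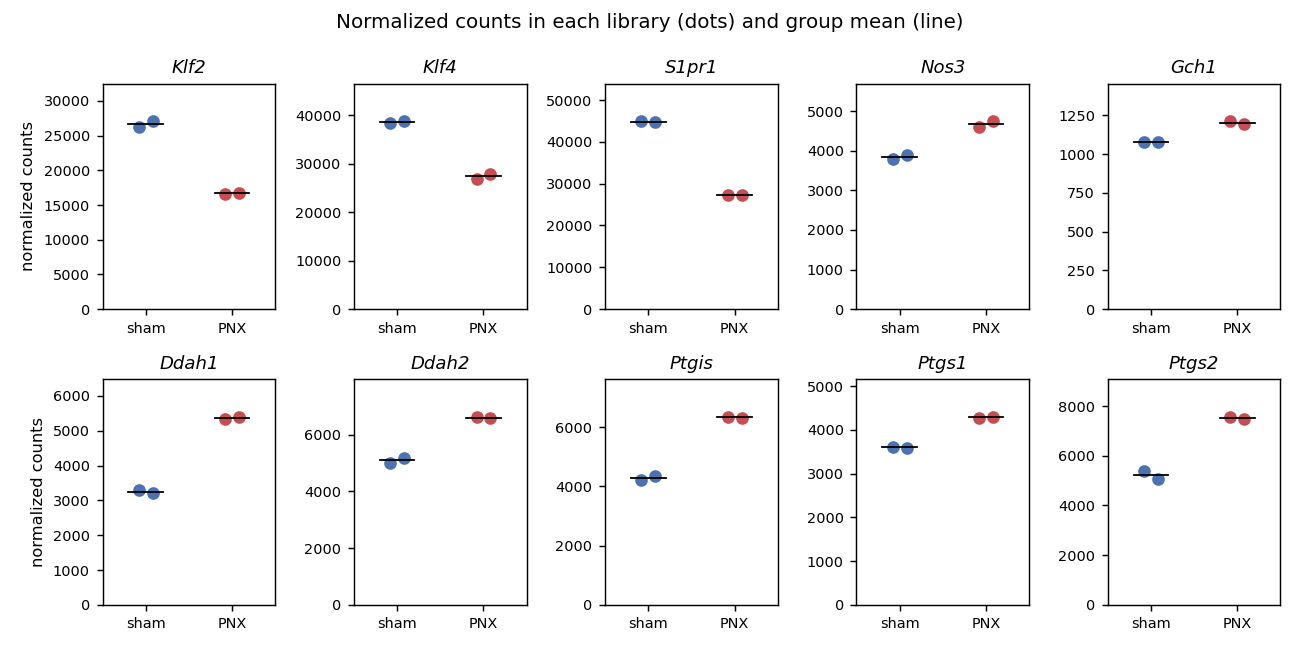
Normalized counts (y axis, from 0) of the 10 genes in each sham and post-PNX library (dots), with group means as lines. Klf2, Klf4 and S1pr1 lay lower in both post-PNX libraries and the other 7 genes higher, with no overlap between groups.

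Klf2, on chromosome 8 from 72319062 to 72321654, was counted 26213 and 27079 times (normalized) in the sham libraries, against 16627 and 16797 times after PNX. Both post-PNX libraries lay well below both sham libraries, and the libraries of a group were close to each other. The mean fell from 26646 ± 612.5 in sham to 16712 ± 119.9 (means ± SD, n = 2 each), which is 62.7% of the sham level. On the log2 scale this was -0.67 ± 0.0193 (SE, edgeR adjusted p = 5.07e-39).

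Klf4, on chromosome 4 from 55527137 to 55532475, is the close relative of Klf2 in the response to flow. It had 38291 and 38750 normalized counts in the sham libraries and 26922 and 27884 after PNX. Its fall was the smaller of the pair, to 71.1% of the sham level, or -0.49 ± 0.0182 on the log2 scale (SE, edgeR adjusted p = 3.38e-33). The ratio of Klf2 to Klf4 in deposited FPKM, a level per transcript length, was 1.15 and 1.17 in the sham libraries and 1.04 and 1.01 after PNX. The ratio was lower in both post-PNX libraries, so Klf2 lost more of its level than Klf4. With 2 libraries against 2 an exact permutation test of a single ratio cannot go below a two-sided p of 0.333, so the ratios here are given per library without a test.

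S1pr1, on chromosome 3 from 115710433 to 115715055, had 44944 and 44717 normalized counts in the sham libraries and 27223 and 27181 after PNX. The libraries of each group almost coincided. Its level fell to 60.7% of sham, or -0.72 ± 0.0173 on the log2 scale (SE, edgeR adjusted p = 4.57e-43). S1pr1 and Klf2 stood at percentiles 4.48 and 5.10 of the log2 fold changes of all genes tested, and Klf4 at 9.19.

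Nos3, on chromosome 5 from 24364816 to 24384474, makes nitric oxide from arginine. It had 3795 and 3880 normalized counts in the sham libraries and 4604 and 4744 after PNX. Nos3 was thus higher in both post-PNX libraries, in which Klf2 and Klf4 were lower. The rise was 1.22-fold, or 0.28 ± 0.0283 on the log2 scale (SE, edgeR adjusted p = 1.44e-13). In the GENCODE annotation 294 of its exonic bases (7.12%) are shared with Atg9b and 25.2% with Gm15587, both on the other strand, and how strand was treated in counting is not given in the sources used here. Atg9b itself had between 206 and 222 counts per library.

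Gch1, on chromosome 14 from 47153895 to 47189413, is the rate-limiting enzyme of the synthesis of tetrahydrobiopterin, a cofactor without which Nos3 makes superoxide. It had 1075 and 1079 normalized counts in the sham libraries and 1213 and 1193 after PNX. This was the smallest change of the 10 genes, 1.12-fold, or 0.16 ± 0.0476 on the log2 scale (SE, edgeR adjusted p = 0.00258). The call depended on the fit. It was lost with DESeq2's Wald test (0.16 on the log2 scale, adjusted p = 0.0657). It was also lost without the first sham library (adjusted p = 0.0179 from edgeR), without the second sham library (adjusted p = 0.0120 from edgeR) and without the first post-PNX library (adjusted p = 0.0281 from edgeR), with changes of 0.16, 0.16 and 0.15 on the log2 scale. The ratio of Gch1 to Nos3 in FPKM was 0.423 and 0.415 in the sham libraries and 0.393 and 0.375 after PNX, lower in both.

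Ddah1 and Ddah2 are paralogs. Ddah1 encodes the enzyme that breaks down asymmetric dimethylarginine, an inhibitor of nitric oxide synthases that circulates in blood. Ddah1, on chromosome 3 from 145758692 to 145894277, had 3287 and 3221 normalized counts in the sham libraries and 5325 and 5394 after PNX. This was the largest rise of the 10 genes, 1.65-fold, or 0.72 ± 0.0282 on the log2 scale (SE, edgeR adjusted p = 7.34e-32). Ddah2, on chromosome 17 from 35059035 to 35062099, had 5022 and 5169 normalized counts in the sham libraries and 6630 and 6584 after PNX.
The rise of Ddah2 was smaller, 1.30-fold, or 0.38 ± 0.0254 on the log2 scale (SE, edgeR adjusted p = 2.26e-20). Per length Ddah2 stayed the more abundant paralog. The ratio of Ddah1 to Ddah2 in FPKM was 0.236 and 0.225 in the sham libraries and 0.289 and 0.295 after PNX, so the balance moved toward Ddah1 in both post-PNX libraries. Ddah2 was the one gene of the 10 with 2 transcripts in the tables, NM_001190449 and NM_016765, and their counts differed by no more than 5 in any library.

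The cyclooxygenase genes Ptgs1 and Ptgs2 make prostaglandin H2 from arachidonic acid, the first constitutively in many cells and the second after stimulation. Ptgs1, on chromosome 2 from 36216742 to 36258593, had 3602 and 3593 normalized counts in the sham libraries and 4275 and 4293 after PNX. It rose 1.19-fold, or 0.25 ± 0.0286 on the log2 scale (SE, edgeR adjusted p = 1.32e-11).
Ptgs2, on chromosome 1 from 150100031 to 150108234, had 5373 and 5046 normalized counts in the sham libraries and 7559 and 7472 after PNX. Its sham libraries lay further apart in proportion than those of the other 9 genes, but below both post-PNX libraries. It rose 1.44-fold, or 0.53 ± 0.0258 on the log2 scale (SE, edgeR adjusted p = 5.67e-27). The ratio of Ptgs1 to Ptgs2 in FPKM was 0.970 and 1.03 in the sham libraries, where the levels of the pair were about equal, and 0.818 and 0.831 after PNX, where Ptgs2 was the higher.

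Ptgis encodes prostacyclin synthase, which turns prostaglandin H2 into prostacyclin. It lies on chromosome 2 from 167203194 to 167252150 and had 4213 and 4354 normalized counts in the sham libraries and 6340 and 6305 after PNX. It rose 1.48-fold, or 0.56 ± 0.0263 on the log2 scale (SE, edgeR adjusted p = 6.12e-28). Per length it was above both cyclooxygenase genes in every library, with a ratio to Ptgs2 in FPKM of 1.86 and 2.04 in the sham libraries and 1.99 and 2.00 after PNX. Of the exonic bases of Ptgis and Ptgs1, 6.08% and 3.81% are shared with genes on the other strand in GENCODE. The ratio to Ptgs2 overlapped between the groups, while the ratio to Ptgs1 was 1.91 and 1.98 in the sham libraries and 2.43 and 2.40 after PNX.

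The levels per transcript length, as FPKM, put the genes that fell above all of those that rose, in both groups. In sham ECs S1pr1 (201) and Klf2 (199) led and their libraries overlapped, followed by Klf4 (172). These 3 genes were at percentiles 98.7 to 98.9 of the FPKM of all genes tested in sham. Ddah2 (51.3) and Ptgis (33.2) came next. Ptgs2 (17.1) and Ptgs1 (17.1) could not be told apart, and Nos3 (12.6), Ddah1 (11.8) and Gch1 (5.29) were lowest, without overlap between neighbors.
After PNX the leading genes came to about the same level, with 126 for Klf2, 123 for Klf4 and 123 for S1pr1, where the libraries of Klf4 and S1pr1 overlapped. Ddah2 was at 66.9, Ptgis at 49.3, Ptgs2 at 24.8, Ptgs1 at 20.4 and Ddah1 at 19.5, all without overlap between neighbors. Ddah1 had passed Nos3, which was at 15.5, and Gch1 stayed lowest at 5.95. The order of levels was otherwise kept below the leading genes.

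**Figure D2:**
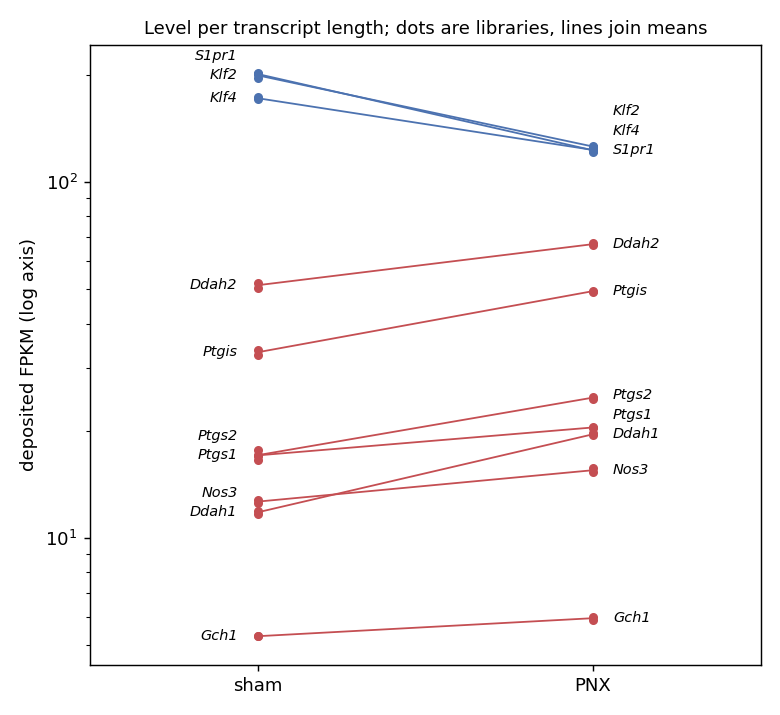
Deposited FPKM (y axis, log scale) of the 10 genes in sham and post-PNX libraries, with each library as a dot and lines joining group means; blue genes fell and red genes rose. The blue lines of S1pr1, Klf2 and Klf4 meet near 123 after PNX, and the line of Ddah1 crosses that of Nos3.

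Most pan-endothelial genes were lower in the post-PNX libraries, which bears on how these changes are scaled. Of 12 pan-endothelial markers, 10 fell and 1 rose, against 27.8% and 29.3% of all genes, with a median log2 fold change of -0.25. Their summed normalized counts went from 551910 and 557600 in the sham libraries to 462220 and 463890 after PNX. With counts scaled to these 12 genes instead of by TMM, all genes shifted up by 0.26 on the log2 scale, and of all genes 67.2% passed, 58.8% higher and 8.43% lower. Against that background 7 of the 10 genes were still higher and 3 lower.
On this scale the log2 fold changes were -0.41 for Klf2, -0.23 for Klf4 and -0.46 for S1pr1. These genes thus fell by more than the pan-endothelial markers did on average. The 12 markers themselves lay between -0.28 and 0.37, a range that held Klf4 but not Klf2 or S1pr1. The log2 fold changes of the other genes were 0.55 for Nos3, 0.42 for Gch1, 0.98 for Ddah1, 0.64 for Ddah2, 0.82 for Ptgis, 0.51 for Ptgs1 and 0.79 for Ptgs2. The highest adjusted p among the 10 was 2.92e-08, for Gch1 (edgeR). Relative to the endothelial markers, Ddah1 was 1.97-fold and Ptgis 1.77-fold higher. In cells taken in bulk, fewer cells of a type and less RNA per cell cannot be told apart.

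**Figure D3:**
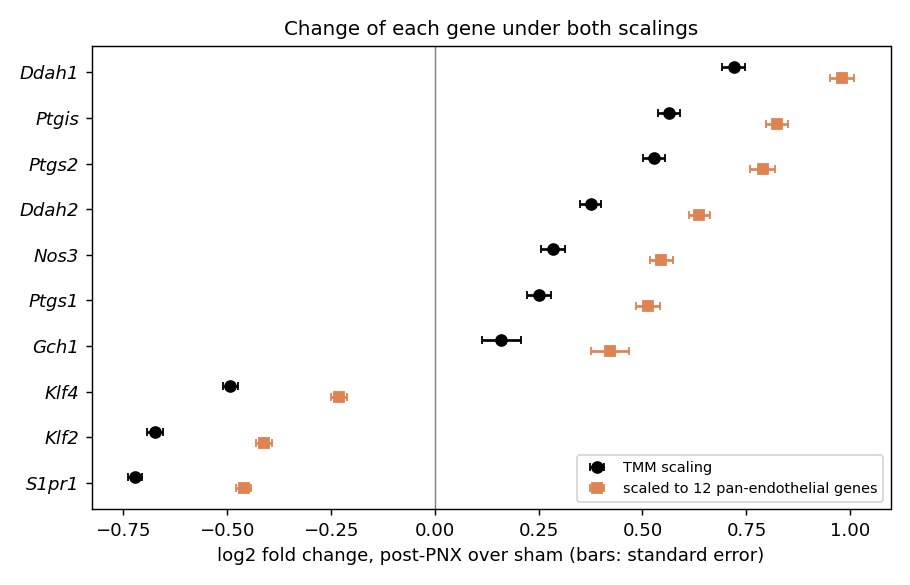
Log2 fold change of each gene, post-PNX over sham (x axis), with the standard error as bars, after TMM scaling (black dots) and after scaling to 12 pan-endothelial genes (orange squares). The second scale moves every gene to the right by about 0.26, and no gene changes side.

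Markers of other cell types moved as well, and their counts are to be read against 29.3% of all genes that rose and 27.8% that fell. T cell markers fell in 7 of 7 genes, with summed normalized counts of 3288 and 3336 in the sham libraries and 1972 and 2079 after PNX, and B cell markers in 6 of 6, from 8064 and 7988 to 4930 and 4810. Lymphocytes are known to express Klf2 and S1pr1. Alveolar type 2 markers fell in 7 of 7 genes, from 336400 and 337430 to 220240 and 218600. General capillary EC markers fell in 7 of 8 genes and rose in 1, with sums from 236870 and 236830 to 202130 and 203780, and their median stood at -0.52 on the log2 scale.
Among cells known to express cyclooxygenases, fibroblast markers rose in 6 of 8 genes and fell in 1, with sums of 66092 and 66798 in the sham libraries and 231030 and 232670 after PNX. Mesothelial markers rose in 7 of 7 genes, from 11669 and 11799 to 24287 and 24705. Smooth muscle and pericyte markers rose in 7 of 8 genes, from 20948 and 21187 to 28686 and 28551. Macrophage markers rose in 9 of 10 genes and fell in 1, with sums from 175500 and 174710 to 229770 and 228690. Platelet markers rose in 4 of 8 genes, from 2772 and 2889 to 4124 and 4091. Mast cell markers rose in 4 of 6 genes and fell in 2, with sums from 2746 and 2741 to 3147 and 3096. Most of these counts were those of Hdc, 1 of the 2 that fell (means of 2390 in sham and 2155 after PNX). Cma1, 1 of the 4 that rose, went from 29.3 to 296. Neutrophil markers rose in 4 of 5 genes and fell in 1, from 9435 and 9705 to 10938 and 10583.
None of the marker genes found in the tables was at 0 in all libraries. Arterial, venous, aerocyte and lymphatic EC markers moved in both directions, with medians of 0.19, 0.03, -0.12 and -0.003 on the log2 scale. The lymphatic sum went from 70212 and 69965 to 46136 and 46951. Lyve1, with means of 44712 in sham and 20230 after PNX, was the only 1 of these genes that fell, while 2 rose and 3 did not pass. The part of these cells in the changes of the 10 genes was not tested.

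**Figure D4:**
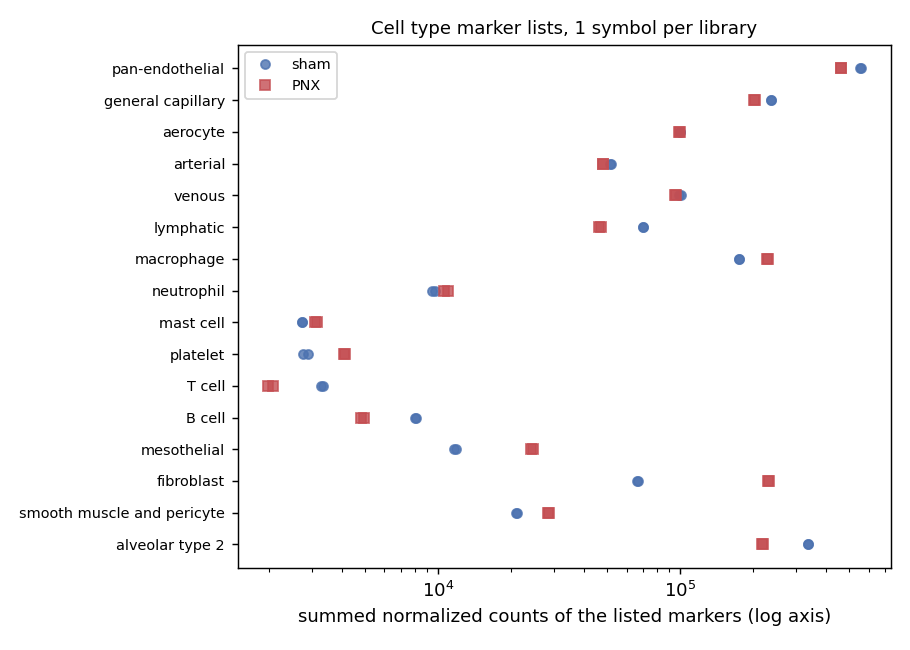
Summed normalized counts (x axis, log scale) of each list of cell type markers, with sham libraries as blue circles and post-PNX libraries as red squares. Fibroblast and mesothelial sums were higher after PNX, and pan-endothelial, lymphocyte and alveolar type 2 sums lower.

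The other genes of the nitric oxide pathway were mostly higher. The lists given here leave out the 10 genes themselves. The nitric oxide list mixes genes that further nitric oxide with genes that act against it, such as Arg1 and Cav1. Its counts therefore give no direction for the output of the pathway. Of 24 genes tested out of 26 listed, 17 rose, 3 fell and 4 did not pass, with a median log2 fold change of 0.19 against 0.00 for all genes. Of all genes 29.3% rose and 27.8% fell. Under scaling to the pan-endothelial genes 20 were higher and none was lower, either by adjusted p or by an unadjusted p under 0.05 (edgeR), with a median of 0.45. This scale moves every list upward, and its counts are to be read against 58.8% of all genes higher, 8.43% lower and a median of 0.26 over all genes. The largest change was that of Arg1, which encodes arginase and uses the same substrate as Nos3, from 93.2 ± 7.83 in sham to 10726 ± 26.5 normalized counts (means ± SD, n = 2 each), 6.84 on the log2 scale. Slc7a2, an arginine transporter, rose by 0.81 on the log2 scale and Nos2, the inducible nitric oxide synthase, by 0.76.
Arg1 and Nos2 are also known as genes of macrophages, whose markers rose here. The most abundant genes of the list were Cav1, caveolin-1, which binds and inhibits the Nos3 protein, and Hsp90ab1, a chaperone. Cav1 fell by 0.27 on the log2 scale, but was level with the pan-endothelial genes (-0.01, adjusted p = 0.616 from edgeR). Hsp90ab1 rose by 0.20. Nos1, the neuronal synthase, had 0 counts in every library.

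Of 18 prostanoid genes tested out of 20, 10 rose, 3 fell and 5 did not pass, where 29.3% of all genes rose and 27.8% fell. Their median log2 fold change was 0.07. With scaling to the pan-endothelial genes 16 were higher and 1 lower, with a median of 0.33. The receptor of prostacyclin, Ptgir, rose from 359 ± 23.7 in sham to 686 ± 31.4 normalized counts (means ± SD, n = 2 each), 0.93 on the log2 scale. Tbxas1, which makes thromboxane from the same precursor as Ptgis, rose by 0.82, and the low genes Ptger3, a receptor of prostaglandin E2, and Hpgds, a synthase of prostaglandin D2, by 2.15 and 1.40.
The genes of prostaglandin clearance were far more abundant. Hpgd, which inactivates prostaglandins, stood at 58941 ± 605.1 in sham and 60941 ± 493.7 normalized counts after PNX (means ± SD, n = 2 each), a rise of 0.05 on the log2 scale (adjusted p = 0.00823 by edgeR). Slco2a1, the prostaglandin transporter, stood at 44004 ± 242.7 in sham and 43518 ± 725.7 after PNX (means ± SD, n = 2 each), a difference that did not pass (adjusted p = 0.416 by edgeR) and that was within the spread between replicates.

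In the sphingosine 1-phosphate pathway 4 of 13 genes tested rose, 7 fell and 2 did not pass, where 29.3% of all genes rose and 27.8% fell. The median log2 fold change was -0.19. Under scaling to the pan-endothelial genes 5 were higher and 5 lower, against 58.8% and 8.43% of all genes, with a median of 0.07. Sphk1, a kinase that makes the ligand, fell from 620 ± 3.27 in sham to 383 ± 19.2 normalized counts (means ± SD, n = 2 each), -0.70 on the log2 scale. The lipid phosphatases Plpp3 and Plpp1, listed under their older symbols Ppap2b and Ppap2a, changed by -0.53 and -0.51, and the receptor S1pr4 by -0.56. All of these were also lower under scaling to the pan-endothelial genes (-0.44, -0.27, -0.25 and -0.30). The receptors S1pr2 and S1pr3, picked for the text with their values already known, went the other way from S1pr1, with log2 fold changes of 0.35 (adjusted p = 2.96e-09) and 0.26 (adjusted p = 1.57e-10, both by edgeR). In sham ECs their FPKM of 4.88 and 8.48 was far under that of S1pr1.

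Of 20 genes known to act upstream of Klf2 and Klf4, 10 fell, 4 rose and 6 did not pass, with a median log2 fold change of -0.08. Of all genes 27.8% fell and 29.3% rose. Under scaling to the pan-endothelial genes 14 were higher and 2 lower, with a median of 0.18, where 58.8% of all genes were higher and 8.43% lower, with a median of 0.26. Gnaq, a G protein subunit that takes part in flow sensing, and Sirt1, a deacetylase, changed by -0.43 and -0.43 and were the 2 genes lower on both scales. Plxnd1, a plexin reported as a flow sensor, rose by 0.30. Map3k2, a kinase above MEK5, changed by -0.32, and the abundant genes Hdac7 and Heg1 by -0.27 and -0.11. On the pan-endothelial scale Map3k2 and Hdac7 were at -0.06 and -0.01 and did not pass, and Heg1 was higher by 0.15.
The kinases of the cascade moved in both directions with TMM. Map3k3, like Map3k2 a kinase above MEK5, fell by 0.21 on the log2 scale (adjusted p = 3.83e-12 by edgeR), but did not pass on the pan-endothelial scale (0.05, adjusted p = 0.0590 by edgeR). Map2k5, which encodes MEK5, had a log2 fold change of 0.06 that did not pass (adjusted p = 0.287 by edgeR), and Mapk7, which encodes ERK5, rose by 0.22. Piezo1, a mechanosensitive channel of ECs, was at 0.01 (adjusted p = 0.601 by edgeR). Map3k3, Map2k5, Mapk7 and Piezo1 were picked for the text with their values already known.

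Among 20 genes reported to respond to Klf2 or Klf4, 11 fell, 6 rose and 3 did not pass, where 27.8% of all genes fell and 29.3% rose. Their median log2 fold change was -0.23. Under scaling to the pan-endothelial genes 5 were lower and 8 higher, with a median of 0.04, against 8.43% of all genes lower and 58.8% higher, with a median of 0.26. Tek, 1 of the 5 lower genes, is also 1 of the 12 genes used for that scaling. Thbd, which encodes thrombomodulin and is known to be raised by both factors, fell from 121050 ± 509.0 in sham to 82863 ± 63.4 normalized counts (means ± SD, n = 2 each), -0.55 on the log2 scale, and remained lower on the pan-endothelial scale (-0.29). Edn1, the precursor of the vasoconstrictor endothelin-1, is known to be lowered by Klf2. It fell here as well, from 14530 ± 62.6 in sham to 6151 ± 82.1 (means ± SD, n = 2 each), -1.24 on the log2 scale and -0.98 on the pan-endothelial scale.
Sele, which encodes E-selectin and is known to be lowered by Klf2, rose by 0.86 on the log2 scale, and Hmox1, heme oxygenase, by 1.55. Ace, which encodes the angiotensin-converting enzyme and was the most abundant gene of the list, changed by -0.25 and was level with the pan-endothelial genes (0.01, adjusted p = 0.444 from edgeR).

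Klf2, Klf4 and Ptgs2 are also known as genes that respond within minutes to stimulation or to the dissociation of tissue, so a list of immediate early genes was read beside them. Of 16 genes, 10 fell, 4 rose and 2 did not pass, where 27.8% of all genes fell and 29.3% rose. Their summed normalized counts went from 549440 and 559290 (sham) to 491060 and 500400 (post-PNX). Ier3, Jun, Egr3 and Btg2 had log2 fold changes of -0.64, -0.49, -0.36 and -0.26. Fos, one of the most abundant, changed by -0.11, and was higher by 0.15 under scaling to the pan-endothelial genes, where 12 of the 16 (and 58.8% of all genes) were higher and Ier3 and Jun were the 2 that were lower. With TMM Ptgs2 rose while most of this list fell. On the pan-endothelial scale both Ptgs2 (0.79) and most of the list were higher. The part of tissue dissociation in these changes was not tested.

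**Figure D5:**
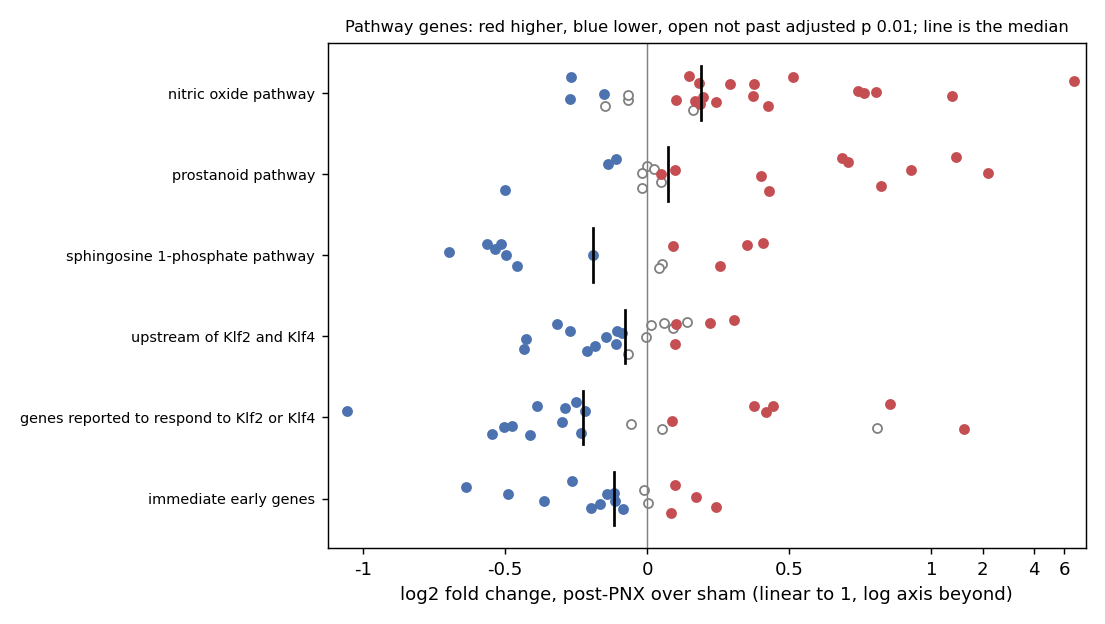
Log2 fold change, post-PNX over sham (x axis, linear to 1 and logarithmic beyond), of each gene tested in 6 lists, with red for higher, blue for lower, open circles for genes past no threshold and a line at each median. The nitric oxide list lies mostly to the right and the Klf2 and Klf4 response list mostly to the left.

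Over the 4 libraries, the genes nearest to Klf2 in log2 normalized counts centered on the sham mean were Gse1, Efnb1 and Aff3, with log2 fold changes of -0.66, -0.65 and -0.65. Those nearest to Nos3 were Asnsd1, Nucks1 and Hnrnpd, each with 0.28. The distances lay between 0.011 and 0.0337 among the 8117 genes whose mean reached 1000 normalized counts. With 4 libraries in 2 groups such likeness rests mainly on the size of the group difference.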

How the data were processed

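RNA of 4 libraries of CD31-selected mouse lung ECs was examined, 2 sham and 2 post-PNX. According to the methods of the study, stranded mRNA libraries were read from both ends and mm10 was the reference for alignment. STAR is named in the submitters' processing notes, and the counting program is not given in the sources used here. For each library the authors deposited whole-number counts on 33068 RefSeq transcripts, without normalization. Beside them the authors deposited FPKM and TPM values per transcript. FPKM was used here for levels between genes and TPM was not used. Transcripts of 1 gene can share reads, as both Ddah2 transcripts did, so the transcript with the most counts stood for a gene.

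Counts were analysed with edgeR 4.0.16 in R 4.3.3 (filterByExpr, TMM, quasi-likelihood F test without covariates, Benjamini-Hochberg adjustment over 16208 genes, threshold 0.01). The standard error is the log2 fold change divided by the square root of F. Normalized counts are scaled to the mean library size. The floor of 3 counts was 0.0589 to 0.0725 CPM and covers counting error only. Labels do not tie libraries to single mice, and p measures only the spread between the 2 libraries of a group. That spread was not far above counting error. The mean chi-square per gene between libraries was 1.77 in sham and 1.53 after PNX. How much of the spread between mice this holds cannot be told, so p may be too small for a difference between mice.

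The 10 genes and all gene lists were chosen with earlier results of these data known. Of each pathway list the 4 largest called changes whose mean reached 100 counts and the 2 most abundant genes are named, except 1 gene that is not reported here. The alternatives were DESeq2 1.42.0 (size factors, Wald test), library size, scaling to 12 pan-endothelial genes, no filter, a mean of at least 50 counts, summed transcripts, the replicate number as a block, and each library left out. On simulated data for this comparison, with 200 of 16208 genes changed, 198 were recovered and 1 of 16008 others was called. That share of changed genes was far below the 57.1% called in the data. The simulation therefore cannot show how the calls hold under so wide a change or under another scaling.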

Additional observations from a re-analysis of the deposited data

How the results depend on the processing

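Klf2, Klf4, S1pr1, Nos3, Ddah1, Ddah2, Ptgis, Ptgs1 and Ptgs2 kept their direction and stayed past the threshold under all 12 alternatives. Gch1 kept its direction but not its call. Its log2 fold change was 0.16 (adjusted p = 0.0657) in DESeq2's Wald test. It was between 0.15 and 0.17 with each library left out, where 3 of 4 fits lost the call. Under scaling to the pan-endothelial genes it was larger, at 0.42, and the call was kept. None of the 10 genes turned its direction. Scaling to the pan-endothelial genes moved the counts most. It gave 9526 higher and 1367 lower genes in all (87.5% of the calls higher, against 51.3% with TMM), 16 higher and 1 lower of the prostanoid genes, 14 higher and 2 lower of those upstream of Klf2 and Klf4, 12 higher and 2 lower immediate early genes, 5 lower genes in the Klf2 and Klf4 response list, and 0 lower nitric oxide genes (3 with TMM, and none at an unadjusted p under 0.05 by edgeR on this scale). The medians of 4 lists turned from below 0 to above 0, those of the sphingosine 1-phosphate, upstream, response and immediate early genes, while the median of all genes went from 0.00 to 0.26. DESeq2's Wald test called 1 prostanoid gene lower and 2 upstream genes higher. With each library left out these counts lay between 1 and 2 and between 2 and 4, the lowest of both without the second sham library. The cause was not tested, apart from the shift of all genes by 0.26 that the scaling itself makes.

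The libraries share replicate numbers but come from different mice. Deviations from the group means correlated by 0.0202 over 14299 genes in same-numbered libraries, so the numbers do not pair them. With the replicate number as a block 4824 genes were higher and 4617 lower, against 4745 and 4513 without it, and 7 of the 10 genes were higher and 3 lower. Depth limits genes with few counts, such as Ptger3 and Hpgds, more than the 10 genes, which had at least 1058 counts per library.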

Other observations

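Other factors of the Klf family, defined by symbol after the falls of Klf2 and Klf4 had been seen, were mostly lower with TMM scaling but not relative to the endothelial markers. Of 12 Klf genes tested besides Klf2 and Klf4, 8 fell, 1 rose and 3 did not pass with TMM (edgeR, adjusted p under 0.01), against 27.8% and 29.3% of all genes. Under scaling to the pan-endothelial genes 5 were lower and 6 higher, against 8.43% and 58.8% of all genes, and Klf6 and Klf13 turned from lower to higher. Klf15, known for its part in glucocorticoid responses and metabolism, had the largest fall of these genes on both scales. It had 1067 ± 56.4 normalized counts in sham ECs and 410.3 ± 20.2 after PNX (means ± SD, n = 2 each), -1.38 on the log2 scale with TMM and -1.12 relative to the endothelial markers. Klf9, also known as a glucocorticoid target, had 10067 ± 149.8 and 5394 ± 66.6 (means ± SD, n = 2 each), -0.90 and -0.64 on these scales. Both falls were larger than that of Klf2. Klf10 rose with TMM, by 0.24, and was higher by 0.50 relative to the endothelial markers.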
